A study of Mus musculus with 2 samples.

Results

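The engulfment genes described here were 9 of the 55487 genes in the deposited table: Elmo1, Elmo2, Dock1, Rac1, Gulp1, Crk, Megf10, Scarf1 and Stab1. They were chosen by symbol, through the GENCODE M21 annotation of GRCm38, and each symbol had a single Ensembl identifier. The cells were apoptotic osteoblasts, primary mouse cells grown out of bone pieces, passaged as marrow mesenchymal stem cells, given osteogenic medium and then killed with ultraviolet light. There was 1 library from young mice, labelled day 0, and 1 from old mice, labelled day 5, so the labelled day and age cannot be told apart. No strain, sex, age in weeks or number of animals is stated in the labels, and no other treatment is named. The series deals with efferocytosis, the removal of dead cells by engulfment. The comparison of old with young covers how the mRNA of the dead osteoblasts differed between the young and the old library.

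Engulfment runs along a pair of conserved pathways, first worked out in the nematode. In the first, the adaptor Crk and the pair formed by an ELMO scaffold and the exchange factor Dock1 switch on the GTPase Rac1, which drives actin to wrap around the corpse. In the second, a scavenger-type receptor such as Megf10 binds the corpse and passes the signal to the adaptor Gulp1. Scarf1 and Stab1 are further scavenger receptors that bind dying cells, Scarf1 through complement C1q and Stab1 through phosphatidylserine. Macrophages are the main eaters in marrow, but osteoblasts and other stromal cells can also engulf dead neighbours. These cells were themselves dead when collected, so the values describe mRNA left in them and no engulfment was measured.

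The mRNA of the intracellular machinery other than Elmo1 was plentiful in both libraries. The mRNA of Elmo1 and of the listed surface receptors was nearly absent. Rac1, Crk, Elmo2, Gulp1 and Dock1 lay between 20.2 and 192 FPKM (fragments scaled to gene length and library size, as deposited), while Scarf1, Megf10, Stab1 and Elmo1 stayed under 0.34 FPKM. Old and young were close: of the 5 members whose mean reached 1 FPKM, 0 were higher or lower by 1.5-fold, where 5.52% of the 12561 genes past this filter were higher and 4.47% lower. The farthest from even was Gulp1, at 42.4 FPKM (young) and 33.7 FPKM (old). With 1 library per group no test was run, and brackets hold 95% counting intervals, which cover counting error only.

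The read totals implied by the FPKM scaling were 16333396 (young) and 18114336 (old). Osteoblast markers ranged widely in level. Of 12, 11 reached a mean of 1 FPKM, among them Col1a1 (8568 and 6788 FPKM, young and old), Runx2 (92.1 and 72.7) and Sp7 (55.5 and 28.9). Ibsp (6.31 and 5.90) and Alpl (2.78 and 3.28) were much lower, Alpl on 36 and 47 reads. The list went both ways, 7 lower and 5 higher in the old library, with Spp1 (224 and 1732 FPKM) and Dmp1 (0.377 and 4.85) among the higher. The late marker Bglap had 3 and 6 reads, with 55.2% of its 50-base words shared with its copies Bglap2 and Bglap3, so its value is uncertain. Of 15 macrophage markers 3 reached that mean, Lyz2, Cd14 and Cd68, and 7 had no read in either library, Adgre1 among them. Their summed level was 31.4 FPKM (young) and 32.5 FPKM (old), Ptprc had 1 and 0 reads, and Csf1r 1 and 6. Of 12 endothelial markers 2 reached that mean, Flt1 and Eng, and 2 had no read, with a sum of 19.4 and 39.3 FPKM; Pecam1 had 13 and 6 reads and Cdh5 0 and 2. Of 9 osteoclast markers Ctsk and Mmp9 reached it, 3 had no read, the sum was 68.5 and 77.7 FPKM, and Acp5 had 1 and 0 reads. In bulk RNA, fewer cells of a type and less RNA per cell cannot be told apart.

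The stretches before the start sites of Elmo1 and Elmo2 are shown because Elmo2 was among the abundant members while its close relative Elmo1 was the lowest. Each sequence holds the 250 bases before the start site that lies nearest the gene's edge in the annotation, read 5′ to 3′ on the gene's strand, from RefSeq on GRCm38.p6. CG pairs are in capitals.
Elmo2, chr2:165326480-165326729, minus strand: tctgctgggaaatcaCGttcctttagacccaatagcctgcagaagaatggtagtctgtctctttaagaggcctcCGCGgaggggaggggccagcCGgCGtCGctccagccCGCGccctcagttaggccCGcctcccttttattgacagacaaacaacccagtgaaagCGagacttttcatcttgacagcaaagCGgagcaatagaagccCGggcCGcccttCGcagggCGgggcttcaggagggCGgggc
Elmo1, chr13:20090257-20090506, plus strand: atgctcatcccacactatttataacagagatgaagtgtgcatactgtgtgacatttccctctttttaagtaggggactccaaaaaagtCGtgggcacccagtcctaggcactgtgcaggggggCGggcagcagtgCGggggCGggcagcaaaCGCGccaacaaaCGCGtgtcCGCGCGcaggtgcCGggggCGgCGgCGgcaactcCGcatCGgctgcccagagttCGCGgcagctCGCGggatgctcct
The Elmo2 window held 16 CG pairs and the Elmo1 window 21, and 25.4% and 16.3% of the 32851 windows of this length in the RefSeq table held at least as many. The median over all windows was 6 pairs. Of the other members in that table, Dock1 had 29 pairs, Crk 18, Gulp1 12 and Stab1 5. CG-rich windows were thus found both beside genes with many reads and beside Elmo1, which had almost none. Such a count describes the sequence and says nothing of methylation or factor binding, which were not measured.

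Elmo2 (ENSMUSG00000017670, chromosome 2, 165288031 to 165326479, minus strand) encodes a scaffold that holds Dock1 in its active form at the membrane. It was at 50.4 FPKM (young) and 45.3 FPKM (old), on 1619 and 1614 reads, and its ratio was 0.899 [0.838 to 0.964]. The median gene past the filter of 1 FPKM had a ratio of 0.952, which lay inside that interval, so at this depth its gap to the typical gene was within counting error. Elmo1 (ENSMUSG00000041112, chromosome 13, 20090596 to 20608353, plus strand) is the relative best known from phagocytes. It had 1 read (young) and 2 reads (old), or 0.026 and 0.047 FPKM. No fold is given for Elmo1, since both values were under 3 reads.

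Within the ELMO family the mRNA was nearly all Elmo2. Elmo2 made up 98.8% (young) and 98.3% (old) of the summed ELMO FPKM, and Elmo3 made up 1.121% and 1.64% on 17 and 25 reads. The level of Elmo2 over that of Elmo1 was 1948 [349 to 77005] (young) and 971 [268 to 8026] (old), where the wide intervals come from the 1 and 2 reads of Elmo1. Of the Elmo1 exon bases 3.20% lie over the gene Gm32036, and the Elmo2 exons overlap no other gene.

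**Figure D1:**
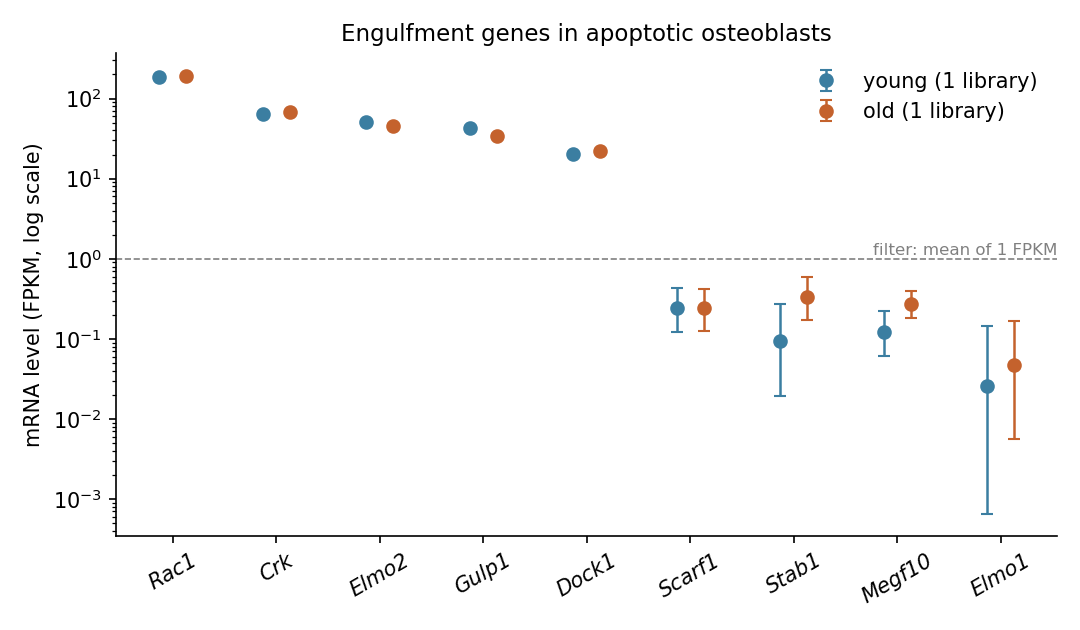
mRNA level of the 9 engulfment genes in FPKM on a log axis, with 1 point for the young and 1 for the old library and bars for the 95% exact Poisson counting interval. Rac1, Crk, Elmo2, Gulp1 and Dock1 sit at 20.2 FPKM or above and Scarf1, Stab1, Megf10 and Elmo1 below the dashed line at 1 FPKM, in both libraries.

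Dock1 (ENSMUSG00000058325, chromosome 7, 134670654 to 135173639, plus strand), also called DOCK180, loads Rac1 with GTP together with an ELMO protein. It was at 20.2 FPKM (young) and 22.0 FPKM (old), on 1095 and 1322 reads, and its ratio was 1.09 [1.004 to 1.18]. It stood 8.86% higher in the old library, with a lower bound close to 1 and above the median gene's 0.952. Dock5, a close relative that also pairs with ELMO proteins, was lower in level at 4.50 and 7.69 FPKM but had a ratio of 1.71 [1.51 to 1.94]. Dock2, the form of blood cells, had no read, which at 3 reads puts its upper limit at 0.057 FPKM (young) and 0.051 FPKM (old). Set against that limit of 3 reads, the Dock1 level was 357-fold and 431-fold higher.

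The makeup of the Dock1 family differed between the libraries. Dock1 took 81.8% (young) and 74.1% (old) of the summed FPKM of Dock1, Dock2 and Dock5, with Dock5 as the remainder. The Dock1 level over that of Dock5 was 4.49 [3.999 to 5.06] (young) and 2.87 [2.62 to 3.14] (old), and these intervals do not overlap. The level of Elmo2 over that of Dock1 was 2.49 [2.31 to 2.69] (young) and 2.06 [1.91 to 2.21] (old), so the scaffold exceeded its partner in both, by less in the old.

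Rac1 (ENSMUSG00000001847, chromosome 5, 143503634 to 143528036, minus strand), the GTPase at the end of the pathway, was the most abundant of the 9 genes. It was at 186 FPKM (young) and 192 FPKM (old), on 5643 and 6452 reads. Its ratio was 1.03 [0.995 to 1.07], an interval that took in 1 and lay above the median gene's 0.952. By mean level Rac1 ranked 511 of 12561 genes past the filter. Rac2, the blood-cell form, had no read in either library, an upper limit of 0.147 and 0.132 FPKM, so Rac1 was at least 1269-fold and 1451-fold higher in level. Rac3 was at 4.395 and 4.66 FPKM, and Rac1 made up 97.7% and 97.6% of the Rac FPKM.

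The value of Rac1 carries a limit. Of its annotated exon bases, 51.4% lie over exons of Daglb, a neighbour on the opposite strand, and the use of strand in counting is not given in the sources used here. Whether reads from the shared stretch were told apart, and to which gene they were counted, is therefore not known. Daglb itself was at 7.27 and 7.54 FPKM, on 382 and 439 reads, with a ratio of 1.04 [0.901 to 1.19].

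Crk (ENSMUSG00000017776, chromosome 11, 75679259 to 75706908, plus strand) is the adaptor that links tyrosine-phosphorylated scaffolds to Dock1. It was at 64.3 FPKM (young) and 67.7 FPKM (old), on 2187 and 2556 reads. Its ratio was 1.05 [0.995 to 1.116], an interval that took in 1 and lay above the median gene's 0.952. Its relative Crkl was at 31.1 and 28.3 FPKM with a ratio of 0.908 [0.834 to 0.988]. Crk thus took 67.4% (young) and 70.6% (old) of the summed FPKM of both. Bcar1, the phosphorylated scaffold p130Cas that Crk binds, was at 34.4 and 33.9 FPKM with a ratio of 0.985 [0.919 to 1.06].

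Gulp1 (ENSMUSG00000056870, chromosome 1, 44551511 to 44796838, plus strand) encodes an adaptor with a phosphotyrosine-binding domain that attaches to the tails of Megf10, Stab1, Stab2 and Lrp1. It was at 42.4 FPKM (young) and 33.7 FPKM (old), on 1281 and 1128 reads, and its ratio was 0.794 [0.732 to 0.861]. It was 20.6% lower in the old library, and its interval lay below both 1 and the median gene's 0.952. On the log2 scale of FPKM + 1 the difference was −0.32, and 29.3% of the 12561 genes lay farther from 0. A difference of this size was thus common between these libraries.

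**Figure D2:**
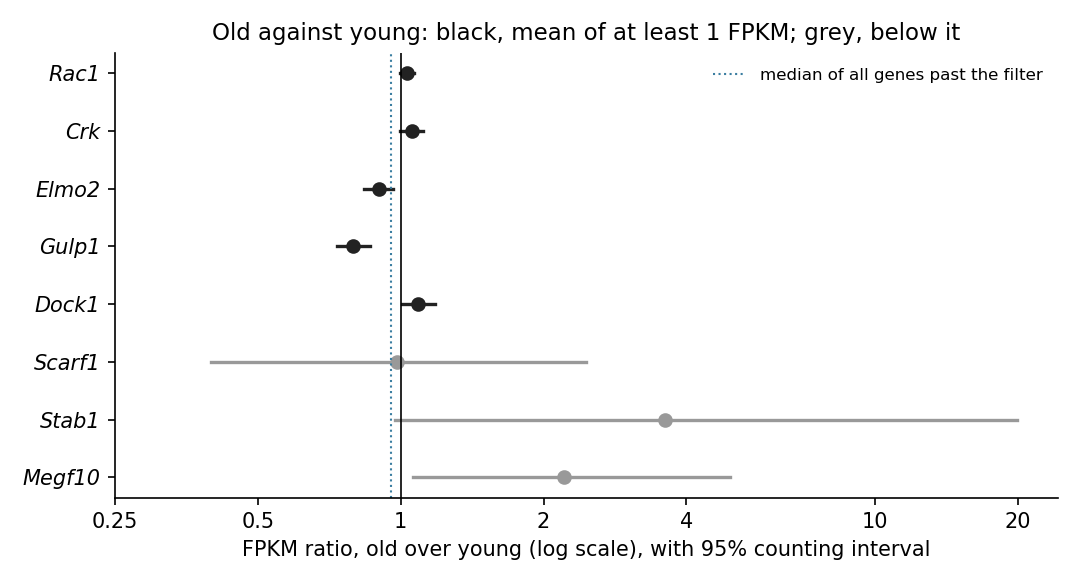
FPKM ratio of old over young on a log axis for 8 engulfment genes, with points for the ratio and lines for the 95% Clopper-Pearson counting interval; Elmo1 is left out because it had under 3 reads in each library. The 5 genes in black lie between 0.794 and 1.09, and the grey genes, on 3 to 27 reads a library, have wide intervals.

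The listed receptors gave few reads. Scarf1, a scavenger receptor of endothelial and immune cells on chromosome 11, had 11 and 12 reads, or 0.244 and 0.240 FPKM with a ratio of 0.984 [0.397 to 2.46]. Megf10, the mammalian counterpart of the nematode corpse receptor CED-1, lies on chromosome 18 and had 11 and 27 reads. Its levels were 0.123 FPKM (young) and 0.273 FPKM (old), a ratio of 2.21 [1.06 to 4.94]. Stab1, stabilin-1, a receptor of macrophages and sinusoidal endothelium on chromosome 14, had 3 and 12 reads. Its levels were 0.093 and 0.335 FPKM with a ratio of 3.61 [0.973 to 19.9].

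Megf10 and Stab1 were higher in the old library by point estimate, on reads too few to fix the size. On the log2 scale of FPKM + 1, which shrinks low values, their differences were 0.18 and 0.29. The summed endothelial markers also stood higher in the old library, with 2 of them lower and 8 higher. The rise of that sum came almost wholly through Flt1 (16.8 and 35.1 FPKM). Others had few reads, such as Sox18 (6 and 18) and Pecam1 (13 and 6). The summed macrophage markers were nearly even, with 4 of them lower and 4 higher. Among these, Lyz2 was at 21.3 and 18.4 FPKM, Cd14 at 4.49 and 9.15 FPKM (92 and 208 reads) and Csf1r had 1 and 6 reads. Their part in the Stab1 and Megf10 values was not tested. Of the Stab1 exon bases, 1.09% lie over Nt5dc2, a neighbour at 59.1 and 62.6 FPKM.

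Relatives of these receptors were better represented. Scarf2, the other Scarf-family receptor, was at 81.1 FPKM (young) and 66.3 FPKM (old), a ratio of 0.817 [0.779 to 0.857], and made up 99.7% and 99.6% of the Scarf FPKM. Pear1, related to Megf10 and also called Jedi, was at 1.44 and 2.32 FPKM with a ratio of 1.61 [1.17 to 2.24], and Megf11 had no read, an upper limit of 0.063 and 0.057 FPKM. Stab2 was at 1.33 and 1.71 FPKM, on 47 and 67 reads, above Stab1 in both libraries. The lipid transporter Abca1, a counterpart of nematode CED-7, was at 0.899 and 1.26 FPKM, on 81 and 126 reads.

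**Figure D3:**
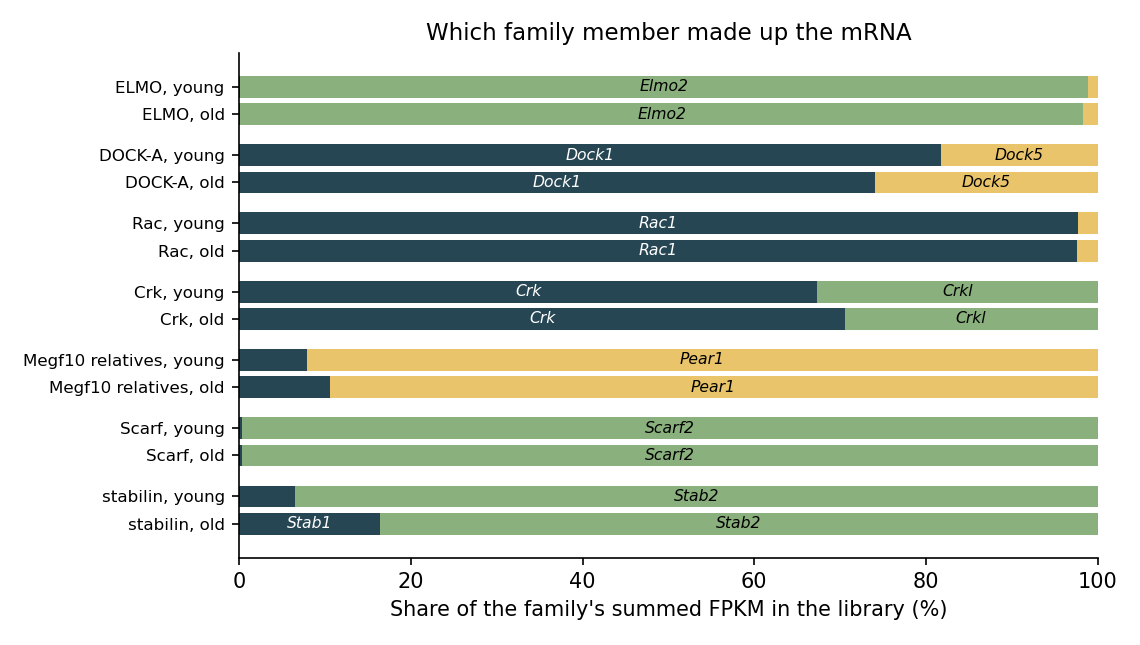
Share of each family's summed FPKM (x axis, percent) taken by its members, with 1 bar for the young and 1 for the old library. Elmo2, Rac1 and Scarf2 take over 97% of their families in both libraries, and the share of Dock5 is 18.2% (young) and 25.9% (old).

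By level, the order Rac1, Crk, Elmo2, Gulp1, Dock1 was the same in both libraries. Neighbours in that order had counting intervals that did not overlap in either library, such as 48.0 to 52.9 FPKM for Elmo2 and 40.1 to 44.8 FPKM for Gulp1 in the young. Scarf1, Megf10 and Stab1 had overlapping intervals in both libraries, so their order was not resolved. The deposited FPKM were scaled to the mean transcript length of each gene, 1966 bases for Elmo2 and 1850 for Gulp1. Scaled to the longest coding transcript, an alternative chosen after the data were seen, Elmo2 was at 21.1 and 19.0 FPKM and Gulp1 at 24.99 and 19.8 FPKM, so Gulp1 came before Elmo2, narrowly so in the old library. Rac1 (83.1 and 85.6) and Crk (31.2 and 32.9) stayed above these and Dock1 (9.85 and 10.7) below.

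Of the 9 members, 5 passed the filter, a mean of 1 FPKM or more, with log2 ratios from −0.32 to 0.12 and a median of 0.04. Over all 12561 genes that passed it, the median was −0.07. At 2-fold on this scale, 0 of the 5 members were higher and 0 lower, where 1.97% of all tested genes were higher and 0.868% lower. With so few members, 0 of 5 is near these backgrounds and those at 1.5-fold, and does not set the members apart. The range from Gulp1 to Dock1 took in 56.8% of all tested genes.

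The other genes of the pathway were taken from 7 lists with 106 genes in all, of which 80 passed the filter. Of these, Axl and Lrp1 (2 genes) were higher in the old library by 2-fold or more and Ager (1 gene) was lower, beside the 1.97% and 0.868% of all tested genes, and the median log2 ratio was 0.06. Among ELMO and DOCK relatives 7 of 11 passed, none at 2-fold, with a median of 0.23. Of their log2 ratios 6 of 7 lay above 0, where 40.4% of all tested genes did. Some of these 6 had counting intervals of the FPKM ratio that took in 1. The median was −0.02 over the 2 relatives whose mean reached 10 FPKM. Dock5 had the largest log2 ratio there, 0.66, followed by Dock11 (2.50 and 4.04 FPKM, 0.53), an exchange factor for Cdc42. Dock6, which acts on Rac1 and Cdc42 without ELMO, was lower at 15.2 and 12.5 FPKM (−0.27), and Dock10 was at 2.49 and 3.11 FPKM (0.24).

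All 11 adaptors and kinases around Crk passed, with a median of −0.01 and none at 2-fold, where 1.97% of all tested genes were higher and 0.868% lower. The SH2 and SH3 adaptor Nck2 was the farthest from even, at 29.0 and 19.3 FPKM with a ratio of 0.666 [0.585 to 0.758], with 9.51% of its 50-base words shared with the predicted gene Gm6226. The kinases Abl2 (8.85 and 10.8 FPKM) and Src (20.7 and 23.5 FPKM) and the Crk-binding scaffold Nedd9 (10.9 and 12.2 FPKM) had log2 ratios of 0.26, 0.18 and 0.15.

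Of the receptor relatives and partners 8 of 9 passed, with a median of 0.23. The median was 0.01 over the 4 genes whose mean reached 10 FPKM and 0.08 with a pseudocount of 5. By 2-fold, 1 was higher and 0 lower, beside 1.97% and 0.868% of all tested genes. The higher gene was Lrp1, a Gulp1-binding receptor for calreticulin, at 337 and 786 FPKM, a log2 ratio of 1.22. Pear1 (0.44) came next. The clathrin heavy chain Cltc was at 201 and 248 FPKM (0.30), whereas dynamin-2, encoded by Dnm2 and needed to close the vesicle, was at 66.9 and 52.8 FPKM (−0.33).

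The actin machinery acts downstream of Rac1. Of 25 genes for the WAVE complex, the Arp2/3 complex and their partners, 20 passed, with a median of 0.07 and none at 2-fold, a count near the background of 1.97% higher and 0.868% lower. Arp2/3 subunits went both ways: Arpc1b was at 267 and 369 FPKM (log2 ratio 0.47), with 18.2% of its exon bases overlapped by Pdap1, while its alternative Arpc1a was at 127 and 103 FPKM (−0.30) and Arpc5l at 54.0 and 43.2 FPKM (−0.32). The WAVE subunit Wasf2 was at 69.3 and 85.8 FPKM (0.30).

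Phagosome maturation genes all passed, 17 of 17, with a median of −0.13. None was at 2-fold, a count near the background of 1.97% higher and 0.868% lower. Of their ratios 12 of 17 lay below 0, beside 7483 of all 12561 tested genes, so the count does not set the list apart. Becn1, a subunit of the lipid kinase complex that marks phagosomes, was at 72.2 and 56.0 FPKM (log2 ratio −0.36), with 43.9% of its exon bases overlapped by Cntd1. Mon1a (7.73 and 5.83 FPKM, −0.35) and Mon1b (8.65 and 6.77 FPKM, −0.31), which hand phagosomes from Rab5 to Rab7, and Rubcn (15.02 and 12.2 FPKM, −0.28), which acts in LC3-associated phagocytosis, were also lower.

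Among the other receptors for dying cells 8 of 18 passed, with 1 higher by 2-fold and 1 lower by it (all tested genes: 1.97% and 0.868%). The median was 0.32, or 0.17 over the 14 with any read and 0.43 over the 5 whose mean reached 10 FPKM. Axl, a TAM-family kinase, was at 58.4 and 155 FPKM (log2 ratio 1.39) and its relative Mertk at 7.87 and 4.25 FPKM (−0.76). The lower gene, Ager, a receptor for glycation products that also binds phosphatidylserine, had 101 and 34 reads, or 4.17 and 1.27 FPKM (−1.19). It was under 2-fold with a pseudocount of 5 and was not among the genes whose mean reached 10 FPKM. The integrin Itgb3 was at 2.36 and 3.80 FPKM (0.51).

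**Figure D4:**
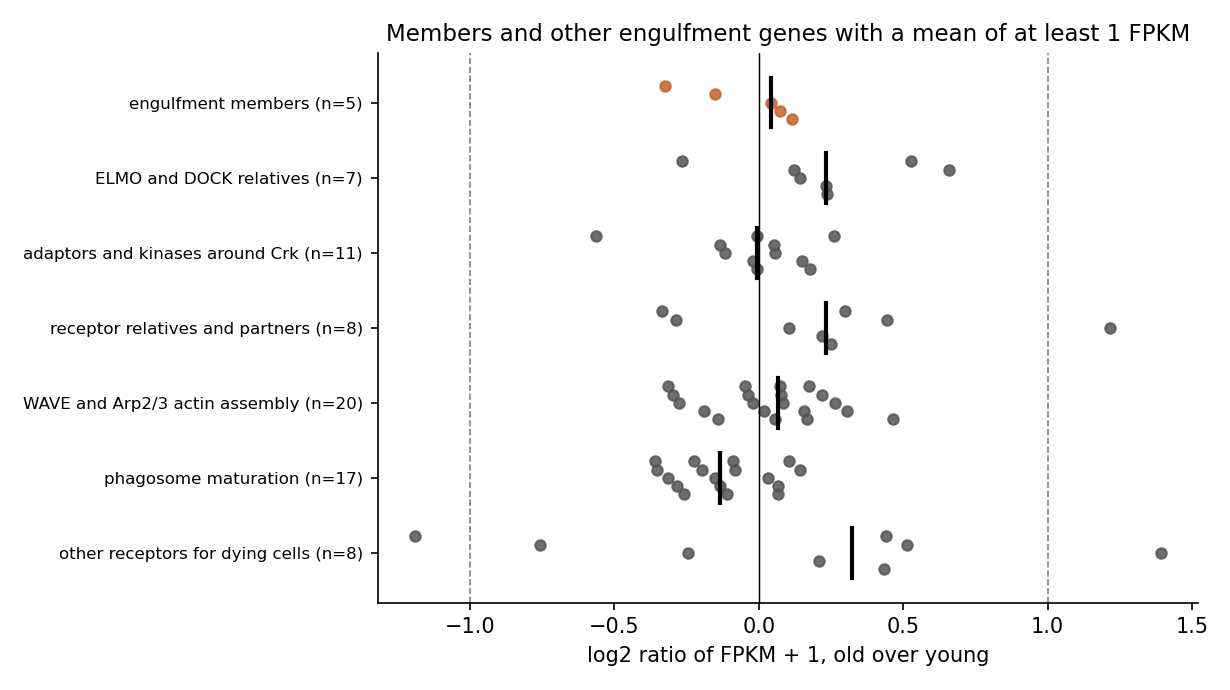
Log2 ratio (old over young, FPKM + 1) of members and of lists of other engulfment genes past the filter; each point is a gene, black bars are medians and dashed lines mark 2-fold. The members lie between −0.32 and 0.12, and Axl, Lrp1 and Ager are the points beyond the dashed lines.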

How the data were processed

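RNA sequencing gave 1 library from young and 1 from old mice. The authors deposited 1 FPKM value per gene and library. Tools named in the submitters' processing notes are fastp, STAR, HTSeq and edgeR, with the build mm10; for versions, annotation release, filters and strand use, the status is not given in the sources used here. Identifiers were joined to GENCODE M21 (55227 of 55487 matched). Reads were recovered as FPKM times the mean annotated transcript length over the value of 1 read: 97.6% of the values above 0 in each library came out whole within 0.01. They served for intervals (exact Clopper-Pearson for ratios, exact Poisson for levels, 95%) and for a floor of 3 reads, never for a test. PCR copies make both too narrow. Log2 ratios used a pseudocount of 1 and understate differences of low genes; genes whose mean reached 1 FPKM were counted. The calculation was tested on simulated data. Exon overlap and shared 50-base words, taken every 25 bases, came from M21.

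The members and lists were chosen with earlier results of these data known. Named genes are the members, their closest relatives, each list's genes at 2-fold and up to 4 genes past the filter with the largest log2 ratios. Single values of 1 list are not reported here. With 2 libraries, likeness of pattern cannot be measured. Alternatives were pseudocounts of 0.1 and 5, no filter or a mean minimum of 10 FPKM, rescaling without the 10 most abundant genes, centring on the median, and another gene length. Python 3.11.15, numpy 2.4.6, pandas 2.3.3 and scipy 1.17.1 were used.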

Additional observations from a re-analysis of the deposited data

How the results depend on the processing

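No paired analysis was possible because each age group had 1 library, and for the same reason no replicate could be left out. Under the 6 other settings of pseudocount, filter and scaling, the counts of members at 2-fold and at 1.5-fold stayed at 0 in both directions. The median log2 ratio of the members was 0.04, and 0.11 after centring on the median gene. Of all 12561 genes past the filter, 248 were at least 2-fold higher and 109 lower. Adding 0.1 in place of 1 before taking logs gave 408 and 236, and adding 5 gave 101 and 20. A filter at 10 FPKM left 8264 genes and gave 106 and 27. The number of other engulfment genes at least 2-fold lower went from 1 to 0 both when 5 was added and with the filter at 10 FPKM. With a pseudocount of 0.1 the log2 ratios were 0.74 for Megf10, past 1.5-fold, and 1.17 for Stab1, past 2-fold. Both rest on 3 to 27 reads a library and were below the filter, so that setting did not count them. No setting joined this pseudocount with no filter. With no filter, 3 other engulfment genes were higher by 2-fold, Trem2 beside Axl and Lrp1. With the longest coding transcript as length, a choice made after the data were seen, the levels of Rac1, Crk, Elmo2, Gulp1 and Dock1 moved beyond their counting intervals, with means over both libraries of 84.4, 32.1, 20.05, 22.4 and 10.3 FPKM; for Stab1 the old value did (0.083 FPKM) and the young value (0.023 FPKM) did not. Depth limits Scarf1, Megf10, Stab1 and Elmo1.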

Other observations

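Receptor genes below the filter of 1 FPKM were outside the comparison, and these were chosen after their values were seen. Trem2, a lipid-binding receptor of macrophages and osteoclasts, had 3 reads (young) and 43 reads (old), or 0.099 and 1.27 FPKM, a ratio of 12.9 [4.14 to 65.1]. The activating receptor gene Cd300lb had 2 and 21 reads by the same measure, but its values did not come out as whole reads. Tyrobp, the signalling partner of Trem2, had 0 reads (young) and 1 read (old). Of the macrophage markers, 4 were lower and 4 higher in the old library by FPKM. Adgre1, C1qa, C1qb and C1qc had no read in either library. Cd14 had 92 and 208 reads, Csf1r 1 and 6, Lyz2 458 and 438, Cd68 70 and 75 and Fcer1g 9 and 3. Their part in the Trem2 value was not tested. The phosphatidylserine receptor genes Timd4, Havcr1 and Cd300lf had no read either, and Adgrb1, which signals through ELMO and Dock1, had 1 read in each.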
